A study of Mus musculus with 19 samples.

Results

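Caspases are cysteine proteases that cut their substrates after aspartate, and 7 mouse caspase genes were followed here across organoid lines of the pancreatic duct. They were Casp1, Casp4 and Casp12 of the inflammatory branch, the apoptotic initiators Casp8, Casp9 and Casp2, and the executioner Casp6. The members were named one by one and read from a transcript table of 29861 genes, of which each of the 7 filled 1 entry. RNA-seq had been done on 19 organoid lines, cultures in which duct epithelium embedded in a basement membrane gel grows as hollow spheres. The 6 tumor lines came from pancreatic adenocarcinomas of mice whose alleles included Trp53LSL-R172H and Pdx1-Cre. The 6 PanIN lines came from ducts of mice whose alleles included Pdx1-Cre and whose pancreas held pancreatic intraepithelial neoplasia (PanIN), the precursor lesion of ductal adenocarcinoma, and the 7 normal lines from ducts of wild-type mice. All mice had the C57B6/J background, and 1 medium served all lines, holding A83-01 (an inhibitor of the TGF-beta receptor), R-spondin, noggin, gastrin, EGF and FGF-10. Pdx1-Cre acts from the pancreatic progenitor stage on, so the recombined alleles are not restricted to ducts. The lines were 3 female and 3 male in the tumor group, 3 female and 3 male in the PanIN group, and 5 female and 2 male in the normal group. Whether some lines shared an animal is not stated in the labels, and p-values therefore cover only the spread between lines.

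Inflammatory caspases act on large signalling platforms, the inflammasomes. Caspase-1, the product of Casp1, matures the cytokines interleukin-1 beta and interleukin-18 and opens the pore protein gasdermin D. The mouse protein made from Casp4, long called caspase-11, binds bacterial lipopolysaccharide in the cytosol and cuts gasdermin D, which ends in pyroptosis, and epithelial cells of several mouse tissues make it. Casp12 encodes a further member of this branch that has been linked to the endoplasmic reticulum in mice. Caspase-8 starts apoptosis at death receptors and holds back necroptosis, caspase-9 is activated on the apoptosome after mitochondria release cytochrome c, and caspase-2 is activated on the PIDDosome. Caspase-6 belongs to the executioner class and cuts lamins.

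Casp1, Casp4 and Casp12 lie next to each other on mouse chromosome 9, and the promoters of all 3 are shown because the first of these genes was almost silent in these lines while the other two were abundant and varied together. The sequences come from RefSeq (GRCm38.p6, plus strand) and cover 250 bases before to 50 bases after the annotated start. The Casp12 window lies at chr9:5345226-5345525, the Casp4 window at chr9:5308599-5308898 and the Casp1 window at chr9:5298267-5298566. Capitals mark matches to the GAS element (TTCNNNGAA) in Casp12 and to the kappa-B site in Casp4.
Casp12: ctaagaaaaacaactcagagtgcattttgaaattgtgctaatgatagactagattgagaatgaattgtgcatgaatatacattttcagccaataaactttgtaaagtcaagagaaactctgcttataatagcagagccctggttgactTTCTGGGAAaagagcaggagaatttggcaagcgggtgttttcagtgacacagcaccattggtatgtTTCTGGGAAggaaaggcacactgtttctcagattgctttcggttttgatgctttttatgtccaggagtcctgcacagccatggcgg
Casp4: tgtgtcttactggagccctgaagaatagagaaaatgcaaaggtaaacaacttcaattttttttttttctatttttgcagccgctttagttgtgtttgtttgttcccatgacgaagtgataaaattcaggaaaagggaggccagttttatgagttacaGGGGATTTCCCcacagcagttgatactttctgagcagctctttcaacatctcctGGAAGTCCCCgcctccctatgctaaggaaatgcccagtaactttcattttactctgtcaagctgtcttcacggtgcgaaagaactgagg
Casp1: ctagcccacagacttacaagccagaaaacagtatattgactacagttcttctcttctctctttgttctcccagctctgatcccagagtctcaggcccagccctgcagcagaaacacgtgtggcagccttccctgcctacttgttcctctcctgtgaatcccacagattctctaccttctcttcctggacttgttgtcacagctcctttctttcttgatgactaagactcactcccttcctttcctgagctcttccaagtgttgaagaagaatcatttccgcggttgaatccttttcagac
The 2 GAS matches of Casp12 begin at positions -102 and -36, counted from the annotated start. Of 32841 RefSeq promoter windows of the same length, 8.30% held at least 1 GAS match and 0.457% held at least 2. In the Casp4 window shown the kappa-B matches overlap each other from position -93 and occur again at -39. Counted from a second annotated start of Casp4, the same matches begin at -104 and -50. At least 1 was held by 8.46% of windows and at least 2, overlapping ones included, by 1.22%. Matches were searched on both strands for these motifs and for the ISRE core (GAAANNGAAA), the p53 half-site, the CCAAT box and the TATA box (TATAA). The Casp12 window also held CCAAT box matches at -162 and -46 and overlapping TATA box matches at -128 and -127, not set in capitals. The Casp1 window held none of the 6 motifs, and 3.44% of all windows held the ISRE core, 8.36% the p53 half-site, 37.4% CCAAT and 24.9% TATAA. These windows differ in base composition: G and C made up 41% of the Casp12 window, 42% of the Casp4 window and 48% of the Casp1 window. The windows of Casp2, Casp6 and Casp9 held 63.7%, 62% and 66%, Casp8 held 42%, and the median of all windows was 52.7%. A match describes letters in the window and was not tested as a binding site.

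Expression was given as TPM, a transcript abundance corrected for transcript length and scaled to 1 total in every line, so TPM levels of different genes can be set side by side. Differences were tested with limma on log2(TPM + 1) over 12500 genes with a TPM of at least 1 in at least 6 lines, and a gene was called at a Benjamini-Hochberg adjusted p below 0.05. The number of reads behind a TPM value is unknown. Fold changes on this scale understate the change of genes with low levels. The lines carried library identifiers of 3 series, read here as a possible batch: the first holds 1 tumor, 3 PanIN and 3 normal lines, the second 3, 1 and 2, and the last 2, 2 and 2. Ductal epithelial markers summed to 6241 to 7857 TPM in tumor lines, 6822 to 9480 TPM in PanIN lines and 7694 to 12495 TPM in normal lines. All 10 fibroblast and all 6 endothelial markers stayed below 1 TPM in every line. So did 7 of 8 acinar markers, with Cela1 reaching 2.36 TPM, and 5 of 6 tuft cell markers, with Dclk1 reaching 6.26 TPM. Since RNA was taken from whole cultures, fewer cells of a type and less RNA per cell cannot be told apart.

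Of the 7 caspase genes, 6 passed the filter and Casp1 did not. Between tumor and normal lines 3 of the 6 tested members were lower, Casp12, Casp4 and Casp6, and 0 were higher. Over all genes tested, 14.4% were called lower and 17.8% higher in that comparison. Between PanIN and normal lines 1 member, Casp2, was lower, against 3.68% of all genes called lower. Between tumor and PanIN lines limma called 0 members at an adjusted p below 0.05, against 1.60% of all genes called in either direction. In that last comparison the authors' deposited table called Casp6 alone among the 7 (adjusted p 0.0493). In the authors' deposited table the adjusted p between tumor and normal lines was below 0.05 for Casp12, Casp4 and Casp6, and that between PanIN and normal lines for Casp2, as in the limma fit. The median log2 change of the 6 tested members was -0.28 between tumor and normal, -0.23 between PanIN and normal and -0.13 between tumor and PanIN lines, beside 0.04, -0.03 and 0.06 over all genes. The 3 comparisons share their lines and are not independent of each other.

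**Figure D1:**
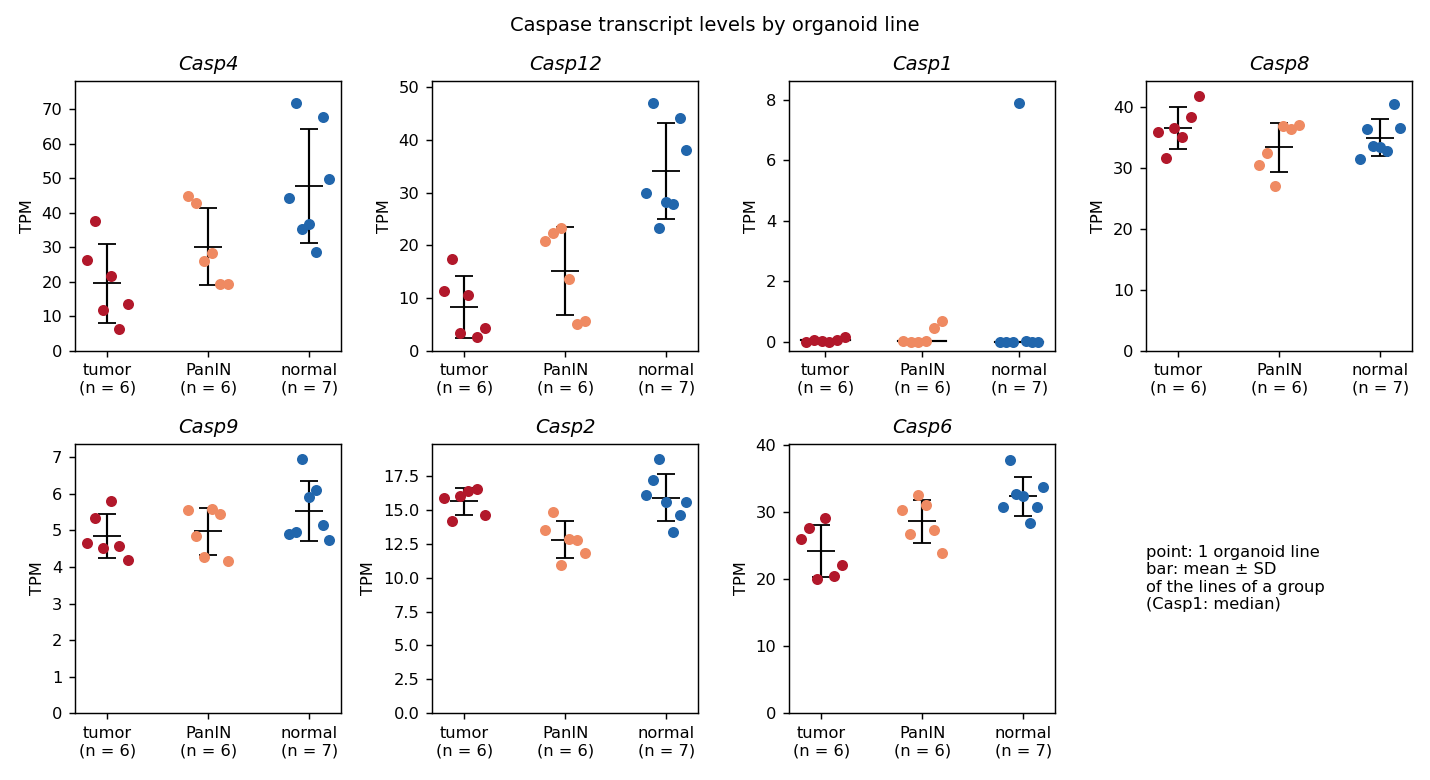
Transcript level in TPM (vertical axes, linear) of the 7 caspase genes in tumor, PanIN and normal organoid lines; each point is 1 line and bars give the mean with its SD, or for Casp1 the median. Casp12 in the 6 tumor lines stayed at or below 17.4 TPM while the 7 normal lines lay at or above 23.2 TPM, and Casp1 exceeded 1 TPM in a single normal line.

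Casp12 was 4.38-fold lower in tumor lines than in normal lines, the widest difference among the members. It ranged from 2.56 TPM (tumor 8) over a median of 7.49 to 17.4 TPM (tumor 4) in tumor lines. In PanIN lines it ranged from 5.07 (PanIN 5) over a median of 17.2 to 23.3 TPM (PanIN 3), and in normal lines from 23.2 (normal 7) over a median of 29.9 to 47.0 TPM (normal 6). Every tumor line lay below every normal line, which 7.26% of all genes tested showed in one direction or the other, and Casp12 was the only member to do so. PanIN lines fell into a set at 20.8 to 23.3 TPM (PanIN 1, 2 and 3), 1 line at 13.6 TPM (PanIN 4) and a pair near 5 TPM (PanIN 5 and 6), so that only PanIN 3 reached the lowest normal line. Tumor lines averaged 8.29 ± 5.82 TPM, PanIN lines 15.1 ± 8.32 TPM and normal lines 34.1 ± 9.07 TPM (SD, n = 6, 6 and 7).

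The log2 change of Casp12 between tumor and normal lines was -2.13 ± 0.39 (SE; limma, adjusted p 0.00102). An exact two-sided permutation test of the same difference gave p = 0.000583, the smallest that 1716 arrangements allow. Exact permutation p-values here and below use only the 2 groups compared and are not adjusted over genes. The log2 change between PanIN and normal lines was -1.30 (95% interval -2.12 to -0.47), with an exact permutation p of 0.00117. Its limma p was 0.00372 unadjusted and 0.0530 adjusted. This adjusted p lay close to the threshold: it passed on leaving out any 1 of PanIN 2, PanIN 3, tumor 4, tumor 5 or tumor 8 (limma adjusted p 0.0353 to 0.0492) and rose to 0.150 without PanIN 5. Tumor and PanIN lines differed by -0.84 (95% interval -1.69 to 0.02; limma adjusted p 0.176), and this difference turned sign between series, with -0.33 in the first, -1.37 in the second and 0.37 in the last. Within the identifier series the difference between tumor and normal lines was -0.85 in the first, where there was 1 tumor line, -2.36 in the second and -2.37 in the last. That between PanIN and normal lines was -0.51, -0.99 and -2.74 in the first, second and last series. The PanIN lines with the highest Casp12 level were thus the 3 of the first series, which were also the 3 female PanIN lines. Series, sex and line cannot be told apart there.

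Casp4 was 2.61-fold lower in tumor lines than in normal lines. The tumor lines ranged from 6.16 TPM (tumor 8) over a median of 17.6 to 37.6 TPM (tumor 4). The PanIN lines ranged from 19.3 (PanIN 6) over a median of 27.1 to 44.7 TPM (PanIN 1), and the normal lines from 28.5 (normal 11) over a median of 44.1 to 71.8 TPM (normal 6). Of the 6 tumor lines, only tumor 4 reached into the normal range, and the lowest PanIN lines were again PanIN 5 and 6. Group means were 19.5 ± 11.4 TPM in tumor, 30.1 ± 11.2 TPM in PanIN and 47.7 ± 16.5 TPM in normal lines (SD). The log2 change between tumor and normal lines was -1.38 ± 0.32 (SE; limma, adjusted p 0.00448). The difference was -0.65 between PanIN and normal lines (95% interval -1.33 to 0.02; limma adjusted p 0.282) and -0.73 between tumor and PanIN lines (95% interval -1.43 to -0.03; limma adjusted p 0.154). By series the last of these was 0.03, -1.19 and -0.03. Leaving out tumor 4 brought it to -0.95 with a limma adjusted p of 0.0439. By series, tumor lines differed from normal lines by -0.35 in the first, -1.38 in the second and -1.57 in the last.

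The table holds a separate entry named Casp11, a symbol that RefSeq lists as a synonym of Casp4, at 0.13 to 0.72 TPM in tumor, 0.23 to 0.97 TPM in PanIN and 0.39 to 1.31 TPM in normal lines. How the authors' counting divided reads between both entries is unknown here, so the level of either is uncertain by that amount. Summing them gave 19.9 TPM in tumor, 30.7 TPM in PanIN and 48.5 TPM in normal lines. Sharing of reads between the 7 members themselves was checked on annotated mouse transcripts. None of the 21 pairs had a stretch of 30 bases in common.

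Casp1 was at or near 0 in nearly all lines. It was listed at 0 in 2 tumor, 2 PanIN and 5 normal lines. The other 4 tumor lines had 0.03 to 0.14 TPM, and the other 4 PanIN lines 0.03, 0.03, 0.44 (PanIN 5) and 0.69 TPM (PanIN 6). Normal 11 had 0.03 TPM and normal 10 had 7.9 TPM. The normal mean of 1.13 TPM therefore came from 1 line; without it the mean was 0.05 TPM in tumor, 0.198 TPM in PanIN and 0.005 TPM in normal lines. The direction of the group means turned with that line: the difference of mean log2(TPM + 1) was -0.39 between tumor and normal and -0.23 between PanIN and normal lines with normal 10, and 0.06 and 0.22 without it. The authors' deposited table gave Casp1 a log2 fold change of 2.21 between PanIN and normal lines and 0.95 between tumor and normal lines, with no adjusted p for the comparison of PanIN and normal lines. In normal 10, Casp4 and Casp12 had 36.7 and 28.3 TPM, inside the range of the other normal lines for both genes.

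Casp4 and Casp12 varied together from line to line. After the mean of each group was removed, their log2(TPM + 1) values correlated over the 19 lines with Pearson r = 0.881 and Spearman rho = 0.853. A permutation test with lines permuted within groups 100000 times gave p = 2e-05 and 4e-05, or 0.0003 and 0.0006 after adjustment over the 15 pairs of tested members. Without tumor 8 and tumor 4, the lines farthest from the median of Casp4, r was 0.838. It was 0.970 within tumor lines, 0.831 within PanIN lines and 0.915 within normal lines, and 0.779, 0.910 and 0.977 within the 3 identifier series. Tumor 4 had the highest and tumor 8 the lowest level of both genes among tumor lines, and normal 6 the highest of both among normal lines. Such closeness was not particular to the pair: with group means removed, Casp12 had an r of 0.944 with Atp8b2 and 0.952 with Scara3.

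Of the 15 pairs, 3 passed. Casp6 followed Casp12 (r = 0.755, rho = 0.696, permutation adjusted p 0.0240 and 0.0409) and Casp4 (r = 0.680, rho = 0.698, permutation adjusted p 0.0350 and 0.0339). Without tumor 7 and tumor 5, the lines farthest from the median of Casp6, r with Casp12 was 0.734. Without tumor 8 and tumor 4, the lines farthest from the median of Casp4, r of Casp6 with Casp4 was 0.586. Within series the Casp6 and Casp4 correlation was 0.363, 0.862 and 0.699, so it was weakest in the first series. Casp8 ran the other way from Casp12 with r = -0.509, which missed the threshold (permutation adjusted p 0.190), and its sign differed between groups: -0.769 in tumor lines, -0.781 in PanIN lines and 0.779 in normal lines. No pair with Casp2 or Casp9 passed.

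**Figure D2:**
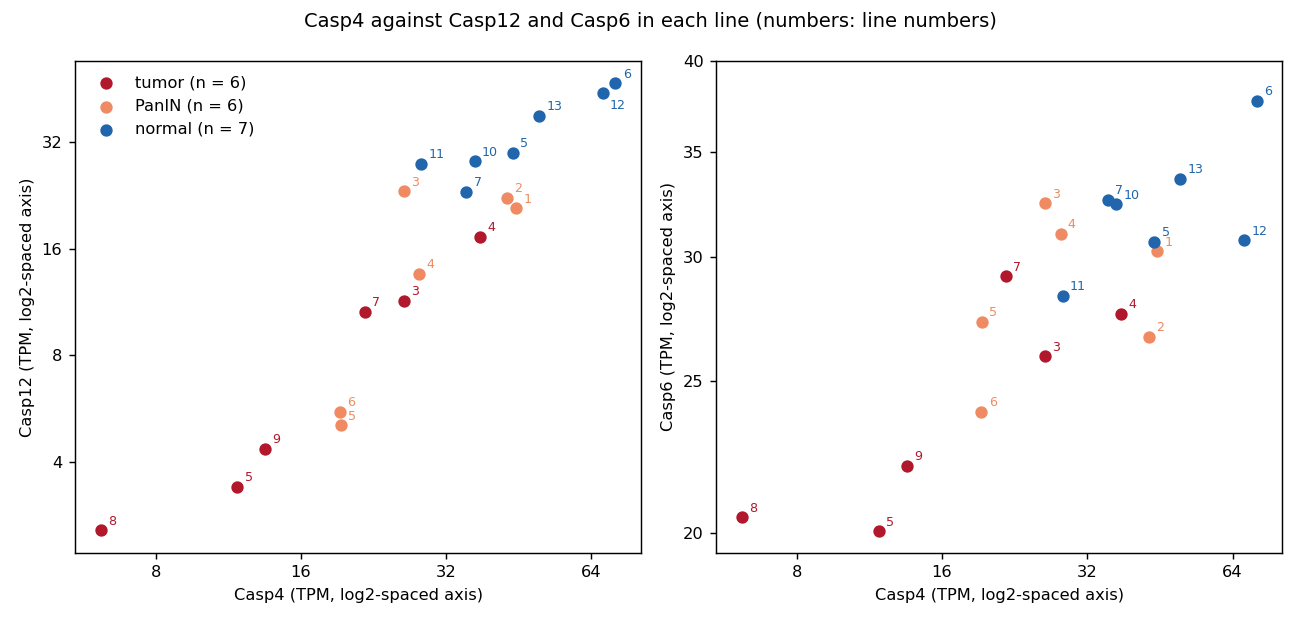
Level of Casp12 (left) and Casp6 (right) against that of Casp4 in each organoid line, in TPM on log2-spaced axes; each point is 1 of 6 tumor, 6 PanIN or 7 normal lines, with its line number. Tumor 8 at 6.16 TPM of Casp4 and 2.56 TPM of Casp12 and normal 6 at 71.8 and 47.0 TPM mark both ends of a common trend.

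The balance within the family differed with these genes. Casp1, Casp4 and Casp12 together made up 24.0 ± 11.4% of the summed TPM of the 7 members in tumor lines, 35.2 ± 9.73% in PanIN lines and 47.5 ± 6.33% in normal lines (SD). The sum itself averaged 109.1 TPM in tumor, 125.1 TPM in PanIN and 171.6 TPM in normal lines. Casp8 was the most abundant of the 7 in 5 of 6 tumor lines, with Casp4 first in tumor 4. Among the PanIN lines Casp8 came first in 3, Casp4 in 2 and Casp6 in PanIN 3. Casp4 came first in 6 of 7 normal lines, with Casp8 first in normal 11. The ratio of Casp12 to Casp4 averaged 0.402 in tumor, 0.485 in PanIN and 0.737 in normal lines, and the ratios of tumor lines (0.288 to 0.489) lay below those of normal lines (0.655 to 0.980). These shares restate the levels above and carry no test of their own.

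The genes whose log2(TPM + 1) followed Casp12 most closely over the 19 lines were Atp8b2 (r = 0.977), Trim44 (0.972), Scara3 (0.968), Mfge8 (0.966) and C3 (0.961), out of 8728 tested genes with a mean of at least 5 TPM. With group means removed their r was 0.911 to 0.952. For Casp4 the closest were Fam188b (0.945), Btf3l4 (0.941), Dynlt3 (0.940), Tmsb15l (0.935) and Dync2li1 (0.935). For Casp8 they were Ap1s2 (0.885), Nedd1 (0.835), Dlat (0.814), Med19 (0.814) and Ptplb (0.813). For Casp1 they were Upp1 (0.691), Ide (0.647), Rab3gap2 (0.641), Stat6 (0.637) and Phka2 (0.633), values to which normal 10 contributes most of the spread. These correlations are descriptions over lines that share group and library.

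Of the 20 RefSeq genes nearest to the Casp1, Casp4 and Casp12 block on chromosome 9, 10 on each side, 6 were in the table under that symbol and 4 were tested. Between tumor and normal lines Pdgfd, a growth factor, was lower (log2 change -0.68, limma adjusted p 0.00891), as were Dync2h1, a cilium motor subunit (-0.64, 0.00482), and Kbtbd3 (-0.29, 0.0486). Dcun1d5 was higher (0.26, limma adjusted p 0.0356), beside 14.4% of all genes called lower and 17.8% called higher. All 4 changes were smaller than those of Casp4 and Casp12, and limma called none of the 4 in the other 2 comparisons.

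Casp6 was 1.33-fold lower in tumor lines than in normal lines. Tumor lines ranged from 20.1 TPM (tumor 5) over a median of 24.0 to 29.2 TPM (tumor 7). PanIN lines ranged from 23.9 (PanIN 6) over a median of 28.8 to 32.5 TPM (PanIN 3), and normal lines from 28.3 (normal 11) over a median of 32.4 to 37.7 TPM (normal 6). Tumor 7 alone of the tumor lines exceeded the lowest normal line. The log2 change between tumor and normal lines was -0.41 ± 0.09 (SE; limma, adjusted p 0.00396; exact permutation p 0.00117), and by series -0.27, -0.39 and -0.41. It was -0.17 between PanIN and normal lines (95% interval -0.37 to 0.02; limma adjusted p 0.341). Between tumor and PanIN lines it was -0.24 (95% interval -0.44 to -0.03; limma adjusted p 0.115), which passed only without PanIN 6 among the lines left out one at a time (limma adjusted p 0.0430).

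Casp2 was 1.22-fold lower in PanIN lines than in normal lines, and tumor lines sat at the normal level. Tumor lines had 14.2 to 16.6 TPM (median 16.0), PanIN lines 10.9 to 14.9 TPM (median 12.8) and normal lines 13.4 to 18.7 TPM (median 15.6). The highest PanIN lines, PanIN 1 and 2, overlapped the lowest normal lines. The log2 change between PanIN and normal lines was -0.29 ± 0.08 (SE; limma, adjusted p 0.0288; exact permutation p 0.00524) and had the same sign in all 3 series (-0.39, -0.16 and -0.28). Between tumor and normal lines it was -0.02 (95% interval -0.18 to 0.14; limma adjusted p 0.875). Between tumor and PanIN lines it was 0.27 (95% interval 0.10 to 0.44; limma adjusted p 0.0664). The call between PanIN and normal lines was lost on leaving out any 1 of PanIN 3, 4, 5 or 6 or normal 6 or 7 (limma adjusted p 0.0519 to 0.0667). With only the 2 groups compared in the fit it was lost too (limma adjusted p 0.0601), while Casp12 was called there (0.0312). The difference between tumor and PanIN lines became a call without tumor 4, PanIN 6 or normal 11 (limma adjusted p 0.0252 to 0.0453).

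Casp8 and Casp9 did not pass the test in any of the 3 comparisons. Casp8, at 31.7 to 41.9 TPM in tumor lines, 27.1 to 37.0 TPM in PanIN lines and 31.4 to 40.6 TPM in normal lines, was among the most abundant members. Its log2 change between tumor and normal lines was 0.06 with a 95% interval of -0.11 to 0.23, so a change of the size seen for Casp6 in the downward direction lies outside the interval. Casp9 was the least abundant of the tested members, at 4.18 to 5.81 TPM in tumor, 4.15 to 5.59 TPM in PanIN and 4.74 to 6.94 TPM in normal lines. Its log2 change between tumor and normal lines was -0.16 (95% interval -0.35 to 0.04; limma adjusted p 0.217). The spread within groups separated the members as well: the SD was 6.32% to 16.0% of the mean for Casp2, Casp6, Casp8 and Casp9 in each group. For Casp4 it was 58.5%, 37.2% and 34.7% in tumor, PanIN and normal lines, and for Casp12 it was 70.3%, 55.1% and 26.6%.

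**Figure D3:**
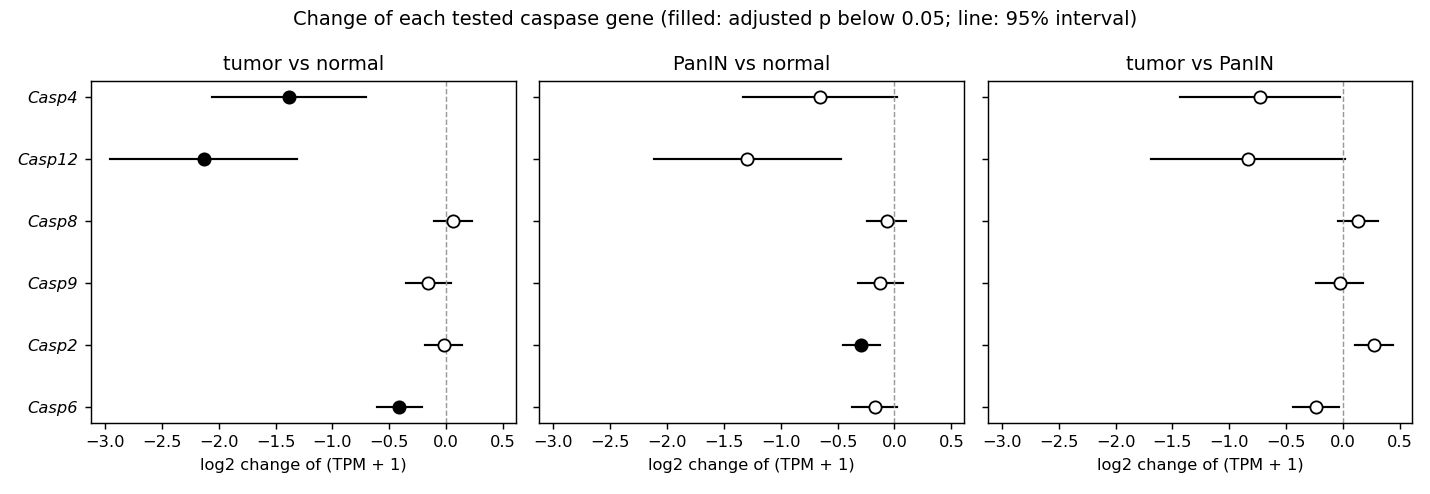
Log2 change of (TPM + 1) with its 95% interval (horizontal axes) for the 6 tested caspase genes in the comparisons of tumor with normal, PanIN with normal and tumor with PanIN lines; filled points passed an adjusted p of 0.05. Casp12 (-2.13), Casp4 (-1.38) and Casp6 (-0.41) are filled in the first comparison and Casp2 (-0.29) in the second.

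Markers of other cell types were set beside the fall of Casp4 and Casp12, since leukocytes make inflammatory caspases. The 12 leukocyte markers in the table summed to 1.95 to 4.81 TPM in tumor, 2.84 to 4.47 TPM in PanIN and 4.86 to 13.02 TPM in normal lines, so that the sum was higher in normal lines. Of the 12, 9 never reached 1 TPM, and Emr1, Lyz2, Tyrobp, Laptm5 and Cd3e were at 0 in all lines. Ptprc, which encodes the pan-leukocyte antigen CD45, reached at most 0.09 TPM. The markers above 1 TPM were Csf1r, Cd68 and S100a8, with maxima of 5.57, 3.65 and 8.49 TPM. The part of this sum in the caspase differences was not tested. The sex of the mouse was also set beside these results. Casp4 differed between tumor and normal lines by -1.93 in female and -0.64 in male lines, and the interaction had an unadjusted p of 0.0485 and a limma adjusted p of 0.366. For Casp12 the values were -2.64 in female and -1.41 in male lines (limma adjusted p of the difference 0.419).

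Lists of genes around the caspases showed scattered calls between tumor and normal lines. The counts of each list below stand beside 17.8% of all genes called higher and 14.4% called lower in that comparison. Between PanIN and normal lines 847 of the 12500 genes tested were called, 460 of them lower (3.68% of all). Between tumor and PanIN lines 1.60% of all genes were called in either direction. Of 17 tested inflammasome genes 1 was higher and 3 were lower (median log2 change -0.09). Pycard, the adaptor that joins sensors to caspase-1, was lower (-0.58, limma adjusted p 0.0148), with 6.21 ± 1.86 TPM in tumor and 9.62 ± 1.88 TPM in normal lines (SD). Nek7, a kinase needed by the sensor NLRP3, was lower (-0.38, 0.0172). Il18, a caspase-1 substrate, was lower (-0.56, 0.0205), though not without tumor 5 or tumor 8 (limma adjusted p 0.0545 to 0.0603). Nlrp1a, an inflammasome sensor with near copies in the mouse genome, was higher (0.71, limma adjusted p 0.00636) at 2.40 TPM in tumor and 1.02 TPM in normal lines, a level that is uncertain if reads were shared among copies. In PanIN lines Pycard was lower than in normal lines (-0.70, limma adjusted p 0.0158) and Ninj1, which ruptures the membrane in pyroptosis and was named after its values were seen, was higher (0.43, 0.00704).

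Of 10 tested genes of the interferon list, which holds interferon factors and the guanylate-binding proteins that expose lipopolysaccharide to caspase-11, 0 were higher and 4 were lower in tumor lines (median -0.26). These were Gbp9 (-1.21, limma adjusted p 0.00215), Gbp8 (-0.78, 0.00580), Irgm2 (-0.69, 0.0149) and Igtp (-0.60, 0.0307), all interferon-inducible GTPases. All 4 were low, at 0.95 to 1.34 TPM on average in tumor lines and 1.82 to 3.75 TPM in normal lines, and they belong to families with similar copies. The Igtp call was lost without any 1 of tumor 5, 8 or 9 or normal 5 or 6 (limma adjusted p 0.0535 to 0.0896). In PanIN against normal lines 0 of the 10 were called by limma at an adjusted p below 0.05, beside 3.68% of all genes called lower. Gbp8 was lower in tumor than in PanIN lines (-0.78, limma adjusted p 0.0495), a call lost on leaving out any 1 of 13 lines (limma adjusted p up to 0.146).

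Of 17 tested genes of the caspase-8 complexes, 3 were lower in tumor lines and 0 were higher (median 0.01). Fas, a death receptor that engages caspase-8, averaged 2.60 ± 1.27 TPM in tumor, 6.43 ± 0.974 TPM in PanIN and 6.75 ± 0.994 TPM in normal lines (SD). It was lower in tumor lines than in normal lines (-1.18, limma adjusted p 0.000342) and than in PanIN lines (-1.12, 0.00401). Every tumor line lay below every normal line for Fas, which 7.26% of all genes tested showed in one direction or the other. Birc2 and Birc3, ubiquitin ligases of the receptor complex, were lower by the same test (-0.33, 0.00832, and -0.38, 0.0317). The Birc3 call was lost without any 1 of tumor 5, 8 or 9 or normal 6, 10, 11 or 12 (limma adjusted p up to 0.0897). Fadd, the adaptor that recruits caspase-8, had 11.1 TPM in tumor and 9.01 TPM in normal lines (0.29, limma adjusted p 0.0502), and it passed without any 1 of tumor 4, PanIN 6 or normal 5, 7 or 12 (0.0213 to 0.0469).

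Of 19 tested genes around the apoptosome, 3 were higher and 5 were lower in tumor lines than in normal lines (median -0.11). Bik, a pro-apoptotic BH3-only protein, averaged 1.29 TPM in tumor and 4.05 TPM in normal lines (-1.12, limma adjusted p 0.000261), and Pmaip1, of the same class, was lower as well (-0.91, 0.0151). Bcl2l1, which encodes the anti-apoptotic BCL-XL, was lower (-0.35, 0.0130), and Htra2, a mitochondrial protease, was higher (0.56, 0.00469). The other called genes, named after their values were seen, were Bmf and Mcl1, which were lower, and Birc5 and Cycs, which were higher; each lost its call without tumor 8, as did Bmf and Cycs without tumor 5, Mcl1 and Cycs without tumor 9, and Cycs without normal 6 or 11 (limma adjusted p up to 0.0902). In PanIN against normal lines the calls, Bik apart also named after their values were seen, were Bax (0.40, 0.00290), Bbc3 (0.65, 0.0151) and Xiap (0.32, 0.0453), which were higher, and Bik (-0.87, 0.00312), which was lower. Bax and Bbc3, pro-apoptotic genes downstream of p53, were lower in tumor than in PanIN lines (-0.51, 0.00289, and -0.96, 0.00391). So were Bcl2l1 (-0.50, 0.0212) and Apaf1, the scaffold of the apoptosome, named after its values were seen (-0.32, 0.0392). The Xiap call was lost on leaving out any 1 of 14 lines (limma adjusted p up to 0.108). The Bcl2l1 and Apaf1 calls against PanIN lines were lost without any 1 of tumor 5, 8 or 9 or PanIN 1, 3 or 4, and that of Apaf1 also without normal 13 (limma adjusted p up to 0.106). These lists were chosen with earlier results of the data known.

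Of 11 tested genes of an executioner list with caspase substrates, 2 were higher in tumor lines and 1, Casp6 itself, was lower (median 0.12). Dffa, the inhibitor of the caspase-activated nuclease, was higher (0.43, limma adjusted p 0.00353), and so was Parp1, a nuclear caspase substrate (0.37, 0.0285), which lost its call without any 1 of tumor 5, 8 or 9 or normal 11 or 13 (up to 0.0817). Dffb, the nuclease itself, had 5.99 TPM in tumor and 4.46 TPM in normal lines and was not called (0.37, limma adjusted p 0.0532), though it passed without any 1 of tumor 4 or 7, PanIN 6 or normal 5 or 7 (0.0225 to 0.0446). Of 6 tested PIDDosome genes limma called 0 at an adjusted p below 0.05 in tumor against normal lines. Mdm2, a caspase-2 substrate and p53 target, averaged 61.4 TPM in tumor, 106.8 TPM in PanIN and 68.3 TPM in normal lines. It was higher in PanIN than in normal lines (0.65, limma adjusted p 0.00333), where Casp2 was lower, and lower in tumor than in PanIN lines (-0.80, 0.00352). Lrdd, which encodes the PIDDosome protein PIDD, had 3.28 TPM in tumor, 4.46 TPM in PanIN and 3.07 TPM in normal lines and was not called (PanIN against normal 0.43, limma adjusted p 0.0589), though it passed without any 1 of tumor 4, PanIN 5 or normal 6 or 7 (0.0375 to 0.0473).

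Between tumor and normal lines, 17.8% of all genes tested were called higher and 14.4% lower. Of 17 tested genes of endoplasmic reticulum stress, 4 were higher and 2 were lower in that comparison (median 0.19). The higher ones were Creb3l1 (0.90, limma adjusted p 0.00488), Sdf2l1 (0.61, 0.00682), Atf4 (0.51, 0.0182) and Edem1 (0.37, 0.0125), which encode a membrane-bound transcription factor, a chaperone cofactor, the factor of the integrated stress response and a protein of degradation from the reticulum. The lower ones, named after their values were seen, were the stress sensors Atf6 (-0.24, 0.0280) and Eif2ak3 (-0.24, 0.0441), and these calls were lost for Atf6 without any 1 of tumor 7, 8 or 9 or normal 11 or 12 and for Eif2ak3 without any 1 of 11 lines (limma adjusted p up to 0.122). In PanIN against normal lines 0 of the 17 were called by limma at an adjusted p below 0.05, beside 847 of the 12500 genes tested. Hspa5, the main chaperone of the reticulum, named after its values were seen, was higher in tumor than in PanIN lines (0.35, limma adjusted p 0.0488), a call lost on leaving out any 1 of 11 lines (limma adjusted p up to 0.129).

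**Figure D4:**
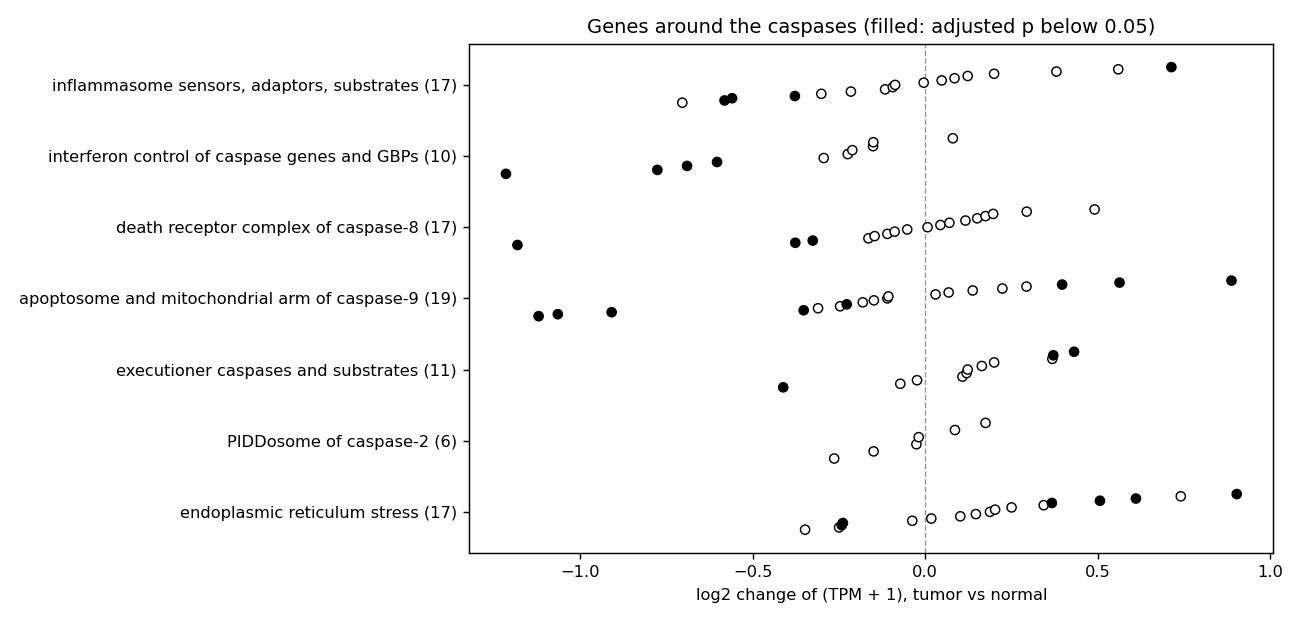
Log2 change of (TPM + 1) between tumor and normal lines (horizontal axis) for the tested genes of 7 lists around the caspases, with the number tested in brackets; filled points passed an adjusted p of 0.05. In the interferon list the 4 filled points all lie at or below -0.60, and in the endoplasmic reticulum list 4 of the 6 filled points lie above 0. Over all genes tested, 17.8% were called higher and 14.4% lower.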

How the data were processed

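RNA-seq values of 19 organoid lines were taken from the deposited table, which the authors made with strand-marking total RNA libraries depleted of ribosomal RNA, per the labels' protocols. Per the submitters' processing notes, FastQC, Bowtie 1.1.0, RSEM 1.2.11, DESeq2 1.4.1, DESeq and genome build mm9 were used and the annotation used is unknown here. The deposited values are TPM per gene and line. Beside them, per the file headers, the authors gave a log2 fold change with its standard error, a test score, a p-value and an adjusted p-value for each comparison. Some of these entries are empty, as for the adjusted p-value of Casp1 between PanIN and normal and between tumor and PanIN lines. The authors' mean level in each comparison was not used. Read depth cannot be recovered from TPM: counting intervals are not given and no count test was applied.

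The tests used limma 3.58.1 (R 4.3.3) and the scale log2(TPM + 1): 1 mean per group, all 19 lines, eBayes with trend, two-sided, Benjamini-Hochberg adjustment over 12500 genes with a TPM of at least 1 in at least 6 lines. The fit was tested on simulated data. Pair correlations used numpy 2.4.6 and pandas 2.3.3 in Python 3.11.15, and figures matplotlib 3.10.9. List genes were named by the 4 smallest p between tumor and normal lines; others are said to be named after their values were seen. Promoters were matched by symbol to RefSeq (7 of 7 members). The members and lists were chosen with earlier results of these data known. Alternatives covered pseudocounts, filters, normalization, covariates, weights and leaving out each line. Not every allele of the mice, and not every gene of the lists, is reported here.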

Additional observations from a re-analysis of the deposited data

Results flagged for a closer look

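Casp1 in normal lines stood out because 1 line lay far from the others: normal 10 had 7.9 TPM, while the next highest normal line had 0.03 TPM and the other 5 were listed at 0. The gap took up 0.996 of the range of the 7 lines. The levels of 7 caspase genes and Casp11 were checked in 3 groups each, 24 groups in all, and chance alone marks about 1 in 20 such groups. S100a8, a leukocyte marker, also had its highest level of all lines, 8.49 TPM, in normal 10. Other leukocyte markers did not peak there: Csf1r had 1.34 TPM and Cd68 2.81 TPM, inside the range of the other normal lines. Ptprc and Tyrobp were at 0 in normal 10, and Ptprc reached at most 0.09 TPM in any line. The part of other cells in this value was not tested.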

How the results depend on the processing

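Among 33 alternatives, Casp12 stayed lower in tumor than in normal lines with a limma adjusted p of 0.00021 to 0.0453, and Casp4 and Casp6 were called in all but 1. No called value changed sign. Whether line numbers pair the lines is not known. Same-numbered lines of different groups had correlations of their deviations from -0.307 to 0.247, with 1 of 7 above 0.1. These values cannot decide it, since no differently numbered pairs were set beside them. With the replicate number as a block, which leaves 4 residual degrees of freedom, 1 member was called between tumor and normal lines (Casp4 0.0594, Casp6 0.130) and 2 between PanIN and normal lines (Casp12 0.0469, Casp4 0.0495), and calls over all genes came to 225, 258 and 8, against 4024, 847 and 200. Between PanIN and normal lines 2 members were also called with a pseudocount of 5 and with the identifier series as covariate (Casp12 limma adjusted p 0.0305 and 0.0254). With array weights 5 members were called between tumor and PanIN lines, along with 4889 of all genes. Calls over all genes between tumor and PanIN lines came to 93 without a filter, 130 with a filter at a TPM of 5, 333 after quantile normalization, 97 with only the 2 groups compared and 65 with the series as covariate. Between PanIN and normal lines they came to 535 with a filter at a TPM of 5. Leaving out 1 line at a time gave 3 members in every fit between tumor and normal lines and 0 to 2 in each of the other 2 comparisons. Over all genes it gave 2657 to 4860 calls between tumor and normal, 496 to 893 between PanIN and normal and 53 to 2836 between tumor and PanIN lines. Summing Casp4 with Casp11, an alternative chosen after seeing the data, changed no member's call. The causes were not tested. TPM without depth limits what can be said of Casp1, Gbp8, Igtp and other genes near 1 TPM.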
